A study of Rattus norvegicus with 24 samples.

Results

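Ribosome footprints were set against RNA in the brain of young rats. The comparison takes 6 of the 24 libraries of the series: 3 of ribosome profiling and 3 of RNA-seq from brains of rats aged 6 months, chosen by their labels and paired by the animal code that the titles of both assays carry. RNA-seq libraries were made from total RNA with a stranded kit, and footprint libraries from RNA left under pelleted ribosomes after digestion with RNase I. No treatment is named for any group, and the sources used here give neither strain nor sex. The codes are read as separate animals, called young animals 1, 2 and 3. If they were not, p-values measure only the spread between these samples. The same animals' livers, and brains of 3 rats aged 24 months, are used only to show where young brain is alike and where it differs.

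A ribosome that is translating an mRNA shields a short stretch of it from nuclease, and sequencing those stretches counts ribosomes along the mRNA. Dividing the footprints of a transcript by its RNA reads gives its ribosome load per unit of RNA, often called translational efficiency. In neurons and glia, as in other cells, initiation rate, elements in the mRNA leader and the length of the coding part are among the known influences on this load. The ratio is relative: the typical transcript was set at 0 on the log2 scale by the scaling of the libraries, so these data say nothing of the total amount of translation.

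RNA-seq libraries held 15290694, 15447209 and 15018979 counts in young animals 1, 2 and 3, and footprint libraries 12932497, 5652238 and 9595157. Footprints were therefore sampled less deeply and less evenly than RNA. Totals were 5259326 to 15618747 footprints and 14281043 to 17551059 RNA counts in old brain, and 11839887 to 17584871 and 17932008 to 21134842 in young liver. Reads were amplified by PCR and carry no molecular identifiers, so counting limits cover counting error only. The deposited tables list transcripts by identifier, and 0 of the 22938 identifiers were found in the RefSeq rat gene table (GRCr8) at hand. Gene names, marker genes of brain cell types and sequences are therefore not used here. As a check of the tissue, the 50 most abundant of the transcripts at least 100-fold higher in young liver than in young brain RNA were followed. They made up 0.00613% to 0.0066% of RNA counts and 0.0104% to 0.0156% of footprints in young brain, against 26.5% to 34.3% and 46.5% to 48.6% in young liver. High RNA in young liver and low RNA in young brain were part of their choice, and their footprints were not. Their RNA shares in these 2 groups therefore only describe the choice. In bulk tissue, fewer cells of a type and less RNA per cell cannot be told apart.

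Most transcripts were seen by both assays. Of the 22938, 15538 had counts in both over the 3 animals, 1337 in RNA-seq alone, 318 in footprints alone and 5745 in neither. Of the transcripts seen in 1 assay alone, 638 in RNA-seq and 100 in footprints had only 1 or 2 counts. Footprints were spread over slightly fewer transcripts than RNA. It took 747, 751 and 756 transcripts to reach 50% of footprints in the 3 animals, and 898, 917 and 923 to reach 50% of RNA counts, with no overlap between the assays. With 3 pairs, an exact sign-flip test cannot give a p below 0.25. The 10 most abundant transcripts took 5.7% ± 0.0774 of footprints and 6.74% ± 0.629 of RNA counts (SD, n = 3), which is the opposite order, with the highest RNA share, 7.46%, in young animal 1.

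Footprint levels followed RNA levels, with a wide scatter. Over the 11848 transcripts with a mean of at least 50 counts in the 6 libraries, log2 levels in library-scaled CPM (counts relative to library size, with 0.5 CPM added) correlated between footprints and RNA of the same animal at r = 0.805, 0.797 and 0.806. RNA level thus accounted for 64.4% ± 0.833 of the variance of footprint levels (SD, n = 3). These are correlations across transcripts, which are not replicates. In both assays their counts also rise with a length-like value that the deposited files give. The log2 levels had an SD across transcripts of 1.8 ± 0.00493 in RNA and 1.89 ± 0.0244 in footprints (SD over n = 3 animals).

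The log2 ratio of footprints to RNA had an SD across transcripts of 1.15, 1.19 and 1.15 in young animals 1, 2 and 3. Its quartiles were -0.67 ± 0.0264 and 0.60 ± 0.00596 (SD, n = 3), and its 5th and 95th percentiles -1.84 ± 0.0624 and 1.54 ± 0.0215. Between those percentiles lay a 10.4 ± 0.499-fold range of ribosome load per RNA. The ratio lay within 2-fold of the average for 70.7% ± 0.765 of transcripts, at least 2-fold above for 13% ± 0.385 and at least 2-fold below for 16.3% ± 0.679. Beyond 4-fold, 2.68% ± 0.119 lay above and 4.02% ± 0.44 below, so the lower tail was the heavier one there in each animal. Beyond 8-fold the shares were close, at 1.07% ± 0.00982 above and 1.23% ± 0.222 below, and in young animal 1 the upper share was the higher one.

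**Figure D1:**
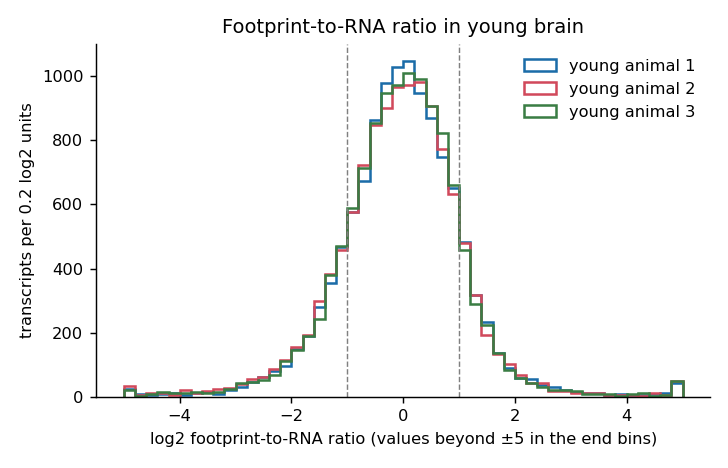
Number of transcripts (y axis, per 0.2 log2 units) by log2 footprint-to-RNA ratio (x axis) in the brain of each of 3 young animals, over 11848 transcripts. Dashed lines mark 2-fold below and above the average, and the end bins collect values beyond 5 in size. The 3 outlines lie on each other, with SDs of 1.15, 1.19 and 1.15.

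To find transcripts whose ratio differed from the average by more than the spread between animals, footprints were tested against RNA with the animal as a block (edgeR quasi-likelihood F test, two-sided, Benjamini-Hochberg adjusted p under 0.05). Of 14032 transcripts tested, 9504 passed, which is 67.7%. Of these, 4719 lay above the average (33.6% of those tested) and 4785 below it (34.1%). Being at least 2-fold from the average as well was met by 1946 above (13.9%) and 2331 below (16.6%). The other 5227 called transcripts differed by less than 2-fold. When the test itself was made against a 2-fold difference rather than against 0, 2659 passed, 1203 above and 1456 below.

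The transcripts at least 2-fold above and those at least 2-fold below differed from the rest in the length-like value, which the call did not use. Called transcripts at least 2-fold above had a median length-like value of 246.5 (quartiles 137 and 408.8), against 420.5 (243 and 697) over all tested and 556 (312 and 916.5) in those at least 2-fold below. The length-like value is a whole number that the deposited files give for each transcript with no name or unit. Its median was 349 and its extremes -17 and 8007, and 3097 transcripts, all with 0 counts, had none. RNA level is the denominator of the ratio and so took part in the call, and its medians are a description: they were 9.69 CPM above, 28.1 CPM below and 23.1 CPM over all tested. Of the 1946 above, 327 (16.8%) had under 1 CPM of RNA, against 18 (0.772%) of the 2331 below and 653 (4.65%) of all tested. Low-RNA transcripts could enter the test through footprints alone, and their part in the difference between the groups was not tested. Further out, 563 called transcripts lay at least 4-fold above and 691 at least 4-fold below, and 298 and 278 at least 8-fold. Median length-like values were 185 and 165.5 at least 4-fold and 8-fold above, and 434 and 265.5 at least 4-fold and 8-fold below. The high values of the lower side thus did not extend to its far end, where the median was under that of all tested. Of the 298, 234 (78.5%) had under 1 CPM of RNA, against the 4.65% of all tested.

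At the ends of the scale stood transcripts with many counts in 1 assay and 0 in the other. The transcripts named here are the 2 highest and the 2 lowest log2 ratios among 7908 that were called, had a mean abundance of 3 or more in log2 CPM and kept 1 side of the average in all 3 animals. ENSRNOT00000038446 (length-like value 134) had 4199, 1745 and 3173 footprints in young animals 1, 2 and 3 and 0 RNA counts in each. Its footprints stood at 332 ± 12.9 CPM (SD, n = 3), at least 5280-fold above the average ratio with RNA set at a floor of 3 counts over the group. The 3 animals lay close together, between 317.8 and 342.7 CPM.

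ENSRNOT00000044428 (length-like value 133) had 2274, 999 and 1778 footprints and 0 RNA counts in each animal. Its footprint level was 185 ± 5.73 CPM (SD, n = 3), at least 2925-fold above the average ratio by the same floor. The reverse held for ENSRNOT00000022122 (length-like value 311), with 1788, 1882 and 1822 RNA counts and 0 footprints in each animal. Its RNA level of 116 ± 2.22 CPM was higher than that of 86.6% of the transcripts tested, and its ratio was at least 1054-fold below the average, with footprints at the floor of 3 counts. ENSRNOT00000048151 (length-like value 244) had 1418, 1498 and 1390 RNA counts, or 91 ± 2.01 CPM, with 0 footprints in each animal and a ratio at least 826-fold below the average. All 4 were called in each of the 14 alternatives run, but these reuse the libraries in which the 4 were picked as extremes and are no independent support. The sources used here do not say how multiply mapped reads were handled, so a transcript that shares sequence with a copy or an overlapping gene is uncertain.

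The same transcripts stood at the same ends in the other groups. ENSRNOT00000038446 had 174, 245 and 424 footprints in the livers of the 3 young animals and 1448, 4624 and 2423 in the old brains, with 0 RNA counts in all 6. ENSRNOT00000044428 had 933, 1446 and 1262 footprints with 0 RNA counts in liver, and 1258, 3132 and 1677 footprints with RNA counts of 2, 1 and 1 in old brain. ENSRNOT00000022122 had 906, 734 and 841 RNA counts in liver and 2062, 1744 and 1724 in old brain, with 0 footprints in all 6 libraries. ENSRNOT00000048151 had 590, 382 and 522 in liver and 1643, 1343 and 1242 in old brain, also with 0 footprints. With 1 assay at 0 in both organs, these counts do not measure a difference in their ratio between brain and liver.

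These 4 belonged to small groups. Over the 3 animals, 50 of the 12542 transcripts with at least 100 RNA counts had 0 footprints, with a median of 298 RNA counts and a highest of 5492. With footprints at the floor of 3 counts over the group, their ratios were at least 20-fold to at least 1054-fold below the average. All 50 had at least 100 RNA counts in old brain too, where 32 again had 0 footprints and 48 had under 10. In young liver, 32 of the 50 had at least 100 RNA counts, of which 22 had 0 footprints. Conversely, 38 of the 11822 transcripts with at least 100 footprints had 0 RNA counts, with a median of 219.5 footprints and a highest of 9117. Of these 38, 35 had at least 100 footprints in old brain and 23 of the 35 again had 0 RNA counts, while 17 reached 100 footprints in young liver and 10 of the 17 had 0 RNA counts. Their median length-like value was 148, against 242.5 for the transcripts with RNA and 0 footprints.

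The ratio was weakly related to RNA level, and the size and direction of the relation depended on how level was measured and which transcripts entered. An animal's own RNA count stands in its ratio, so the ratio was set against the mean RNA level of the other 2 animals. Spearman's rho was -0.174, -0.153 and -0.175 in young animals 1, 2 and 3, over 11848 transcripts. In 10 equal bins of RNA level, the median log2 ratio was 0.59 ± 0.0316 (SD, n = 3) in the lowest bin, around 4.92 CPM, and between -0.12 and 0.03 in the next 7. It was -0.19 ± 0.00727 in the ninth and -0.18 ± 0.0202 in the highest bin, around 275 CPM. Most of the decline thus lay between the lowest bin and the one after it.

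That step went along with how transcripts were admitted. With little RNA, a transcript reaches a mean of 50 counts in the 6 libraries only through footprints. When transcripts were instead admitted on at least 50 RNA counts on average in the other 2 animals, so that the ratio itself played no part, the lowest bin had a median of 0.10 ± 0.00682, the highest stayed at -0.18 ± 0.0168, and rho was -0.0886, with single animals from -0.096 to -0.0739. This choice was made after seeing the data. RNA levels in CPM also increase with the length-like value. With RNA level taken per unit of the length-like value, rho was 0.0448, from 0.0233 to 0.0568 in the 3 animals, so the sign turned. The ratio itself declines with the length-like value, so dividing by that value pushes rho up. Within tertiles of the length-like value rho was -0.174 in the shortest, 0.0141 in the middle and -0.0479 in the longest. Among the 5129 transcripts with a mean of at least 500 counts in the 6 libraries, the relation was stronger, with rho at -0.256 (-0.257 to -0.255). Their lowest and highest bins had medians of 0.85 ± 0.03 and -0.10 ± 0.0239 (SD, n = 3), and 13.1% ± 0.214 of the variance lay between bins of RNA level, against 10% ± 1.78 between bins of the length-like value. These transcripts too could be admitted through their footprints.

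**Figure D2:**
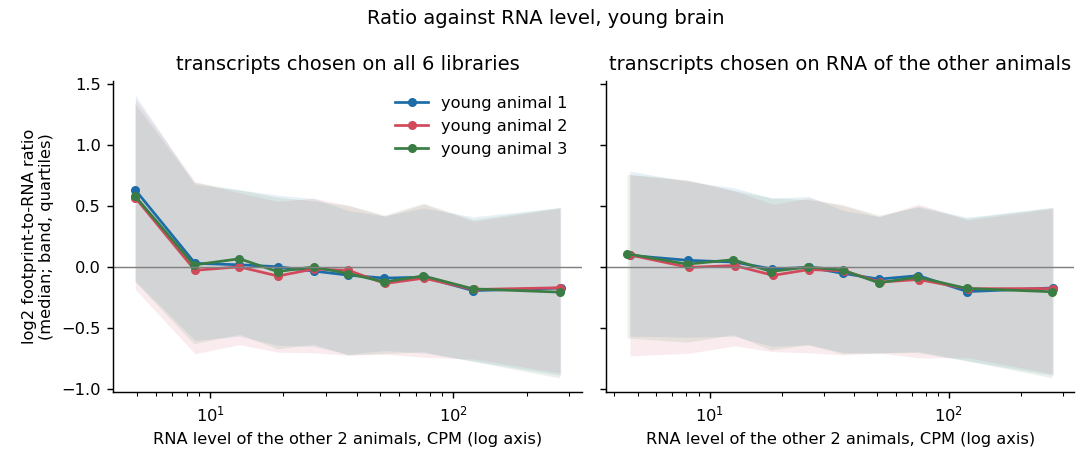
Median log2 footprint-to-RNA ratio of each young animal (y axis, points; bands span the quartiles) in 10 equal bins of the RNA level of the other 2 animals (x axis, CPM on a log axis). With transcripts chosen on all 6 libraries (left panel) the lowest bin lies at 0.59, and with transcripts chosen on RNA of the other animals (right panel) at 0.10, while the highest bin lies at -0.18 in both.

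Over the 11848 transcripts, scatter around the medians was widest among those with little RNA, while among well-counted transcripts the order depended on the measure. The SD of the log2 ratio was 1.66 ± 0.0473 (SD, n = 3 animals) in the lowest bin, 1.21 ± 0.047 in the second and 0.967 to 1.08 from the third on. Among transcripts admitted on RNA alone, the lowest bin had an SD of 1.24 ± 0.0501. Abundant transcripts were spread no less than those of middle level, with an SD of 1.08 ± 0.015 in the highest bin and 0.967 ± 0.0151 in the sixth. With at least 500 counts on average, the SDs of the lowest and highest bins were 1.18 ± 0.000753 and 1.14 ± 0.0255, the lowest bin being slightly higher in each animal. The interquartile range was then the narrower in the lowest bin, at 0.933 ± 0.0371 against 1.51 ± 0.0273, in each of the 3 animals.

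The ratio declined steadily with the length-like value. Spearman's rho was -0.308, -0.324 and -0.359 in young animals 1, 2 and 3. Over 10 equal bins, the median log2 ratio was lower at each step, from 0.52 ± 0.0491 (SD, n = 3) in the first, with length-like values of 6 to 142, through 0.07 ± 0.0324 in the fifth, to -0.56 ± 0.0547 in the last, with values of 1153 to 8007. By these medians, transcripts of the first bin thus carried 2.11 ± 0.13 times as many footprints per RNA read as those of the last. The value accounted for little of the scatter: 7.81% ± 1.25 of the variance of the log2 ratio lay between the 10 bins.

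The decline was seen at every RNA level. In tertiles of RNA level rho was -0.300 in the lowest, -0.322 in the middle and -0.322 in the highest. In the lowest tertile of RNA level, median log2 ratios were 0.45 ± 0.0268 in the shortest, 0.01 ± 0.0212 in the middle and -0.28 ± 0.0602 in the longest tertile of the length-like value (SD, n = 3). In the highest tertile they were 0.26 ± 0.0504, 0.20 ± 0.0195 and -0.41 ± 0.0288. Short and middle transcripts of high RNA level thus lay close together, and the long ones apart. With at least 500 counts on average, where counting error is small, rho was -0.382 and the first bin stood 2.17 ± 0.152 times above the last.

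Each assay had its own trend with the length-like value. RNA counts increased with it at a mean rho of 0.355 ± 0.011 and footprints at 0.17 ± 0.00284 (SD, n = 3), with no overlap between the assays. Per unit of the length-like value, levels decreased with it in both, at -0.246 ± 0.0104 for RNA and -0.386 ± 0.00406 for footprints. The value then stands in both terms, and the division by itself pushes these correlations down. The sources used here do not say which part of a transcript was counted in each assay. A trend with the length-like value and a difference in the part counted therefore cannot be told apart.

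**Figure D3:**
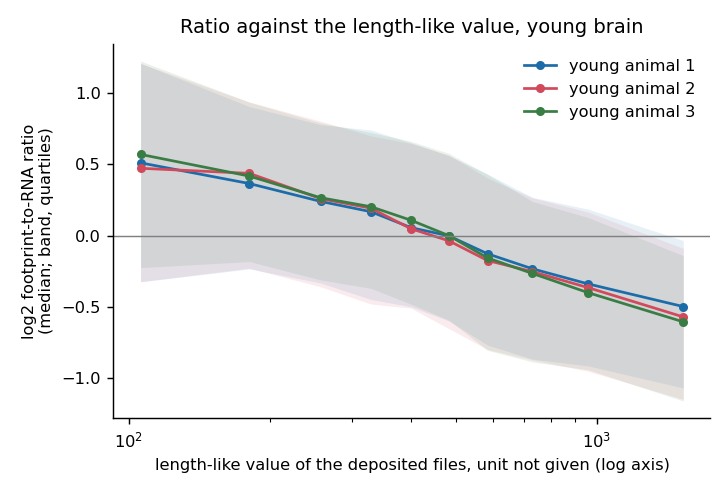
Median log2 footprint-to-RNA ratio of each young animal (y axis, points; bands span the quartiles) in 10 equal bins of the length-like value of the deposited files (x axis, log axis, unit not given). The medians over the 3 animals decline from bin to bin, from 0.52 to -0.56.

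Scatter also narrowed with the length-like value, from an SD of the log2 ratio of 1.71 ± 0.024 in the first bin to 0.838 ± 0.019 in the last (SD over n = 3 animals). With at least 500 counts on average these were 1.6 ± 0.0367 and 0.789 ± 0.0196, so the difference was of like size among well-counted transcripts. The interquartile range there was 1.59 ± 0.119 in the first bin against 0.894 ± 0.0301 in the last. With at least 50 counts on average it was 1.5 ± 0.0475 against 1.04 ± 0.0202, in proportion a smaller difference than that of the SDs. The SDs did not decline evenly either, with 1.09 ± 0.0257 in the second bin and 1.23 ± 0.0683 in the third. How much the extreme transcripts added to the narrowing was not tested.

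The ratio was reproducible between animals. Across 11848 transcripts it correlated at r = 0.929 between young animals 1 and 2, 0.9525 between 1 and 3 and 0.9345 between 2 and 3. RNA levels alone correlated at 0.991 to 0.996 and footprint levels at 0.972 to 0.982. The SD of the difference in log2 ratio between animals was 0.443, 0.354 and 0.425 in the same order, against an SD of 1.15 to 1.19 across transcripts. The ratio differed at least 2-fold between animals for 4% of transcripts in the first pair, 1.79% in the second and 3.6% in the third. Both pairs with the larger differences included young animal 2, whose footprint library was the smallest. With all libraries thinned to the same depth the correlations were 0.938 to 0.951, over the 10204 transcripts that then reached 50 counts, so depth and the set of transcripts changed together.

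**Figure D4:**
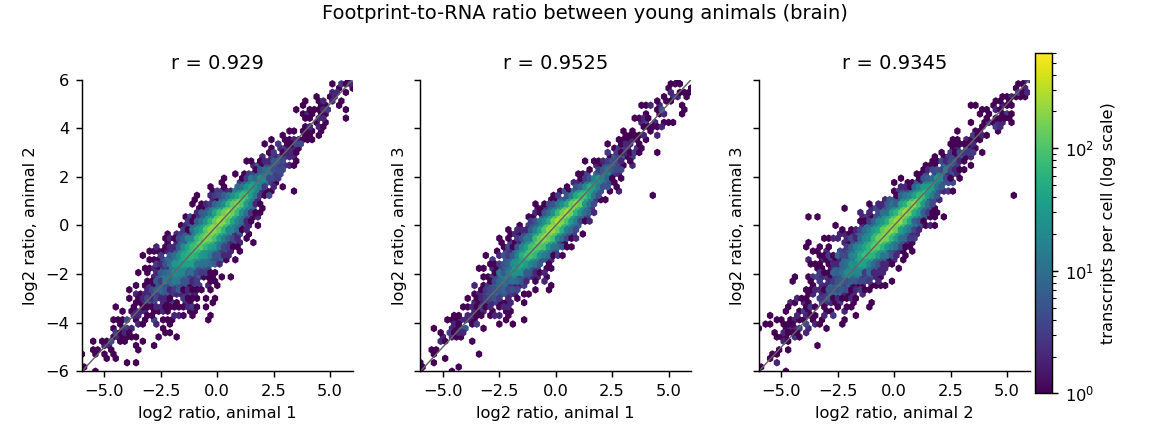
Log2 footprint-to-RNA ratio of the same transcripts in pairs of young animals (both axes), with colour for the number of transcripts per cell on a log scale and the line of equal values. Points follow the line in all 3 pairs (r = 0.929, 0.9525 and 0.9345), and 28 of 11848 transcripts lie beyond 6 in size in at least 1 animal and outside the axes.

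The part shared by the animals was most of the spread. The log2 ratio had a variance of 1.35 and an average covariance between animals of 1.27, so 93.8% of the variance across transcripts was common to the animals and 6.19% was not. The common part includes anything that affects the counts of a transcript alike in each library. Precision was higher at higher counts. The typical between-animal SD of the log2 ratio was 0.621 for transcripts with a mean of 10 to 50 counts, 0.24 for 200 to 500 and 0.0827 for at least 5000. Counting alone would give 0.507, 0.127 and 0.0244 in those ranges. The spread between animals was thus above counting alone in each of these ranges. The SD across transcripts changed little over the same ranges, from 1.38 to 1.08 and 1.14.

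**Figure D5:**
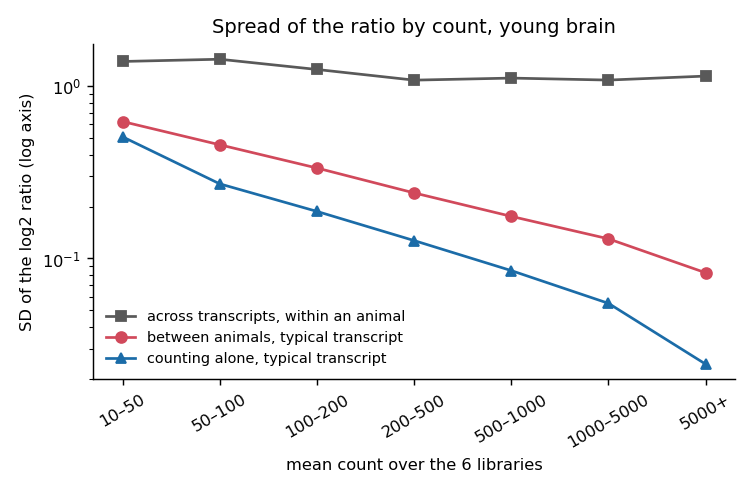
SD of the log2 footprint-to-RNA ratio (y axis, log axis) by mean count over the 6 young brain libraries (x axis): across transcripts within an animal, between animals for a typical transcript, and from counting alone. The between-animal SD falls from 0.621 to 0.0827 and stays above counting alone, which falls from 0.507 to 0.0244, while the SD across transcripts stays at 1.08 or more.

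Footprint levels deviated along with the RNA levels of the same animal, though 6 pairings are too few for a test to decide on the pairing. Deviations of footprint levels from the group mean correlated across transcripts with the RNA deviations of the same animal at 0.367, 0.204 and 0.202, and with those of other animals at -0.261 to 0.0453. Deviations from a group mean cancel out over the animals, so positive values within animals push those between animals down. The mean over the 3 animals was 0.257, higher than in the other 5 pairings (one-sided exact permutation p = 0.167, the smallest that 6 pairings allow). Using each animal's own RNA narrowed the ratio only slightly, to a mean SD of 1.164 against 1.166 to 1.173 in the other 5 pairings. Some of these leave an animal with its own RNA.

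The calls in young brain were then looked up in animals and in an organ that had no part in them. In old brain, 9737 of 14387 transcripts passed the same test (67.7%), 34.2% above the average and 33.5% below. Of the transcripts at least 2-fold above in young brain, 1921 were tested in old brain and 1832 (95.4%) were called above there. Of those at least 2-fold below, 2323 were tested and 2175 (93.6%) were called below. Of both groups together, 1 transcript was called on the opposite side. The brain library of old animal 2 stood apart: the 50 liver transcripts took 1.54% of its RNA counts and 2.63% of its footprints, against at most 0.0179% and 0.0979% in the brains of old animals 1 and 3. Without that animal, 1754 of 1907 (92%) and 2046 of 2309 (88.6%) were called on the same side, against 8421 of 13847 (60.8%) over all tested. The log2 ratios of young and old brain correlated at r = 0.956 across 13943 transcripts, with a Spearman's rho of 0.944.

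In young liver, 8356 of 11927 transcripts passed (70.1%), 34.7% above and 35.3% below. Of the transcripts at least 2-fold above in young brain, 1458 were tested in liver, where 1172 (80.4%) were called above and 39 below. Of those at least 2-fold below in brain, 1908 were tested and 1667 (87.4%) were called below and 38 above. The organs come from the same 3 animals but share no library. The log2 ratios of the organs correlated at r = 0.847 across 11224 transcripts, and by rank less closely, at a Spearman's rho of 0.768. The SD of the difference was 0.857, against 0.471 between young and old brain. The difference between the organs, tested as the interaction of assay and organ with the animal and organ as a block, passed for 3884 of 14807 transcripts (26.2%, edgeR, adjusted p under 0.05). It passed for 2280 without young animal 2.

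The trend with the length-like value was shallower in young brain than in the liver of the same animals. Over 8690 transcripts with at least 50 counts on average in each of young brain, old brain and young liver, rho was -0.362 ± 0.0263 in young brain and -0.485 ± 0.00919 in young liver (SD, n = 3), with no overlap (exact sign-flip test, two-sided p = 0.25, the smallest that 3 pairs allow; 0.5 after adjustment over 6 comparisons). In old brain rho was -0.372 ± 0.0307, overlapping young brain (two-sided exact permutation p = 0.7). Without old animal 2 it was -0.358, and the difference of young from old brain turned from 0.0102 to -0.0041, with overlap in both cases. The SD of the log2 ratio was 1.14 ± 0.023 in young brain, 1.12 ± 0.0133 in old brain and 1.12 ± 0.0199 in young liver. Young brain overlapped old brain (exact permutation p = 0.5). It overlapped young liver too, but was the higher in each of the 3 animals (exact sign-flip p = 0.25, the smallest that 3 pairs allow). With at least 500 counts on average, over 2280 transcripts, the order of the organs turned. Young brain then had the lower SD, at 1.125 ± 0.0169 against 1.21 ± 0.0347 in young liver, with no overlap (exact sign-flip p = 0.25, the smallest that 3 pairs allow). The relation to RNA level was -0.181 ± 0.0139 in young brain, -0.189 ± 0.00966 in old brain and -0.127 ± 0.0301 in young liver. Young brain and liver did not overlap in it (exact p = 0.25), but with at least 500 counts on average the difference between them turned from -0.0543 to 0.0080.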

How the data were processed

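Ribosome profiling and RNA-seq of young brain were analysed, with young liver and old brain beside them. Old liver was not used here. The authors deposited 1 table per library with whole-number counts per transcript, not normalised, and a length-like whole number per transcript that no header defines. The rat build rn4 is named per the submitters' processing notes, beside TopHat2 2.0.10, Bowtie 1.0.0.0 and DESeq. The sources used here give neither their roles nor the annotation, counting rule or handling of duplicates. Members and tests were chosen with earlier results of these data known.

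Footprints were tested against RNA with edgeR 4.0.16 in R 4.3.3 (TMM factors, robust quasi-likelihood fit, animal as a block, expression filter with minimum count 10 and total 15). The block follows the animal codes, which the titles of both assays share, and same-numbered deviations correlated at 0.202 to 0.367. Other values used TMM-scaled CPM on the scale log2(CPM + 0.5), which understates ratios of low transcripts, over transcripts with a mean of at least 50 counts. Transcripts with 0 counts in 1 assay were set at a floor of 3 counts over the group. No replicate pair matched to within sampling error (chi-square over degrees of freedom 3.17 to 9.6). Alternatives were DESeq2 1.42.0, limma-voom (limma 3.58.1), other factors, filters, pseudocounts and equal depth, and each animal left out. Naming took the 2 highest and 2 lowest ratios among called transcripts that averaged 3 or more in log2 CPM and lay on 1 side of the average in all 3 animals. Gene lists and markers could not be run without gene names.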

Additional observations from a re-analysis of the deposited data

How the results depend on the processing

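The count of 9504 calls ranged from 8460 to 9769 over 13 of 14 alternatives and was 2659 when tested against a 2-fold difference, which asks for more. Without the animal as a replicate block it was 9365, of which 9211 were among the 9504. The named transcripts, picked as extremes of the same libraries, kept their calls. Of the calls, 45.24% to 51.32% lay above the average. The SD across transcripts (1.16) was 1.29 and 1.01 with pseudocounts of 0.1 and 2 CPM, 1.2 and 1.1 with at least 10 and 500 counts, 1.14 at equal depth and 1.07 with transcripts chosen on RNA of the other animals. The rho with RNA level (-0.167) was -0.148 and -0.256 with at least 10 and 500 counts, -0.217 at equal depth, -0.0886 when chosen on RNA, and -0.18 to -0.159 with an animal left out. It turned to 0.0448 per unit of length-like value and to 0.0141 in the middle tertile of that value, and was -0.0479 in the highest. The rho with the length-like value (-0.33) was -0.382 with at least 500 counts, -0.300 in the lowest tertile of RNA level and -0.303 when chosen on RNA, and kept its sign in all 13 alternatives. The correlation between animals (mean 0.939) was 0.909 and 0.978 with at least 10 and 500 counts, 0.876 with the 5% lowest and 5% highest ratios left out, and 0.929 to 0.953 with an animal left out. The organ interaction count (3884) was 2280 to 3862 with an animal left out. With at least 500 counts, young brain minus young liver was -0.0829 for the SD (0.0235 before), 0.0080 for the rho with RNA level (-0.0543 before) and 0.0919 for the rho with length-like value (0.123 before), and young minus old brain was -0.00938 for the rho with RNA level (0.00752 before). Choosing on RNA, leaving out extreme ratios, leaving out animals of the liver, old brain and organ comparisons, and the 500-count comparison of groups were chosen after seeing the data. Where values moved, the cause was not tested. Depth limits low transcripts: counting alone gives the log2 ratio a typical SD of 0.507 at 10 to 50 counts.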

Other observations

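Few well-counted transcripts differed in ratio between the young brains. Among 5129 transcripts with a mean of at least 500 counts, the log2 ratio of the 3 animals lay within 0.5 for 4708 (91.8%), and the median range was 0.228. At least 2-fold differences between animals were found for 19 transcripts (0.37%), and the largest range was 2.64. In all 19 the footprint levels of the 3 animals ranged more widely than their RNA levels. Over the 11848 transcripts, too, footprint levels correlated less between animals than RNA levels, at 0.972 to 0.982 against 0.991 to 0.996. Young animal 2 was the one farthest from the middle value in 9 of the 19, and young animals 1 and 3 in 5 each. The shares over all 5129 were not counted for either, so neither can be read as particular to the 19. The median length-like value of the 19 was 514, against 564 for the 5129. With 1 pair of libraries per animal these differences have no replicate within an animal.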
